A study of Mus musculus with 3 samples.

Results

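Cytochrome P450 enzymes were followed here as 1 gene superfamily in 3 kinds of mouse cells. Members were all genes whose symbol begins with Cyp and a digit and that have a named probe on the array, which gave 98 genes of the 20659 named genes on the design, read by 119 probes. For 96 of them a reading could be used on all 3 arrays. The other 2, Cyp17a1 (steroid 17-alpha-hydroxylase) and Cyp2d40, lost their only spot on the hepatocyte array to the scanner software's outlier mark and are described without a difference from hepatocytes.

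P450s are haem proteins that insert an oxygen atom from O2 into a substrate, with electrons handed over by P450 oxidoreductase in the endoplasmic reticulum or by adrenodoxin in mitochondria. Families 1 to 3 act mostly on drugs and other foreign compounds, family 4 on fatty acids, and smaller families on bile acids, steroid hormones, vitamin D and retinoic acid. Most of the drug-metabolising members are abundant in hepatocytes, where transcription factors of the HNF4, C/EBP and FOXA families and ligand-activated receptors control them.

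The study made hepatocyte-like cells from spleen fibroblasts and set them against primary hepatocytes, and each group was 1 array of RNA from a pool of 5 samples. The MF pool held primary fibroblasts of mouse spleens remodelled with SiO2, and the iHep pool held hepatocyte-like cells derived from such fibroblasts. The treatment note names the lentiviruses LV-NC and LV-3TF and, read in the order it names the cells, gives LV-NC to MF and LV-3TF to iHep. Both were collected 14 days after the virus, and PH were hepatocytes taken freshly after isolation, as a positive control. The labels do not say what LV-NC and LV-3TF carry, give no age or strain, and call every sample female. With 1 array per group there is no spread between samples, no test and no p-value, and each difference is one between pools.

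Levels are log2 of the spot's intensity relative to the 75th percentile of its array, so a level of 0 is that percentile and a difference of 1 is 2-fold. A gene counted as detected where the scanner software called any of its probes well above background. A gene detected on 1 array of a pair and not on the other has a bound in place of a difference, written as at least so many fold. Such a bound holds for the background correction used here and can shrink with another. The dim side of a bound is taken at its own reading or at the lowest level detected on its array (-6.30 in MF, -7.32 in iHep and -6.89 in PH), whichever is higher. Repeated spots of a probe gave differences between arrays with an SD of 0.14 to 0.15 on the log2 scale, while different probes of a gene gave a pooled SD of 0.84 for iHep against MF and of 1.09 to 1.11 for the comparisons with PH. The 2-fold threshold used for counting is thus near the spread between probes. MF was scanned apart from iHep and PH and was dimmer, with a 75th percentile of 544 intensity units against 3751 and 2081, and wherever MF enters a difference, group and scan cannot be told apart.

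The contents of the pools bear on what follows. Of 10 hepatocyte markers, 10 were detected in PH, 7 in iHep and 4 in MF, and Alb, the serum albumin gene, was at -5.20 in MF, -4.75 in iHep and 6.67 in PH. PH also gave all 4 exocrine pancreas markers (levels of 5.06 to 6.56), all 4 macrophage markers and all 3 endothelial markers, and MF gave 4 of 4 macrophage markers beside 7 of 7 fibroblast markers. The 7 fibroblast markers were detected in PH too and 6 of them in iHep, at median levels of 5.55 in MF, -5.45 in iHep and 0.72 in PH. Levels in iHep were uneven, with Col1a1 at 4.62, Col1a2 at 2.45 and Pdgfra at 1.22, while Dcn, Thy1, Postn and Lum read -5.45 or below. Against PH, 1 of the 7 was higher in iHep (Pdgfra, 7.28-fold), 4 were lower and 2 were within 2-fold. All 7 were at least 2-fold lower in iHep than in MF, with a median difference of -4.19. The differences ran from 3.18-fold for Pdgfra, at least 4.47-fold for Lum and 5.52-fold for Col1a1 to 3470-fold for Postn and 8163-fold for Thy1. The macrophage markers Csf1r (47.7-fold), Ptprc (12.1-fold) and C1qc (at least 4503-fold) were lower in iHep as well. Against the female label, the Y-linked genes Ddx3y (-0.26), Eif2s3y (1.64), Kdm5d (-5.94) and Uty (-3.57) were detected in PH and in neither other pool, while Xist, which silences 1 X chromosome in female cells, was detected in MF alone (-2.44). In bulk RNA, fewer cells of a type and less RNA per cell cannot be told apart. What other cells in the pools, or male RNA in PH, contribute to the P450 values was not tested.

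The sequences just upstream of the genes are shown first for some of the members whose values in iHep differed from those of a relative or neighbour, and for Cyp26a1 and Cyp8b1, all chosen after the values were seen. They are RefSeq sequences of GRCm38.p6, 5′ to 3′ on the gene's own strand, ending at the last base before the annotated start. The first set is from the Cyp3a cluster and from Cyp3a13, which lies apart from it. Capitals mark TGTTTAC, a FOXA core, and CAAAGTCCA, a string that HNF4 factors bind.
Cyp3a11, chr5:145879855-145880054, minus strand: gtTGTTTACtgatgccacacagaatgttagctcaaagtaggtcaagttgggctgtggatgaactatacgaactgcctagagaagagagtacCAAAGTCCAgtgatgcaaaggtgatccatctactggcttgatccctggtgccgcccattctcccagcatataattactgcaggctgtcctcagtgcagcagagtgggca
Cyp3a16, chr5:145469724-145469923, minus strand: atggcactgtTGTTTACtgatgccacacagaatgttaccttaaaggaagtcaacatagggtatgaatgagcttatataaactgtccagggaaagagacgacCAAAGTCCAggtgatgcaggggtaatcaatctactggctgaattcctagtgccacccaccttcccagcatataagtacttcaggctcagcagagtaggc
Cyp3a41b, chr5:145584731-145584930, minus strand: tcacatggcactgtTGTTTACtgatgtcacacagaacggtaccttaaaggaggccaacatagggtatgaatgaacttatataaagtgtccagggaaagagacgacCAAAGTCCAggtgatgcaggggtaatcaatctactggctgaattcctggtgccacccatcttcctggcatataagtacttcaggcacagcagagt
Cyp3a44, chr5:145805875-145806074, minus strand: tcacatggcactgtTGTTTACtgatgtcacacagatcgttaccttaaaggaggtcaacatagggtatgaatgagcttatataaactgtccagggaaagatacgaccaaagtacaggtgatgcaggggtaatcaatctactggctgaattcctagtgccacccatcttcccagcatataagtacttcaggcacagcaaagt
Cyp3a13, chr5:137921620-137921739, minus strand: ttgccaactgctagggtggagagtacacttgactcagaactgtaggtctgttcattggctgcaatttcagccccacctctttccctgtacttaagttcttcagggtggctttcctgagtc

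The HNF4 letters lie 109 to 101 bases before the start of Cyp3a11, 99 to 91 before that of Cyp3a16 and 95 to 87 before that of Cyp3a41b. At the same place Cyp3a44 differs from Cyp3a41b by C7A, counted from 1 at the first base of the string, although the 2 stretches share 94.5% of 200 aligned positions. Cyp3a16 shares 93.9% with Cyp3a41b and 95.4% with Cyp3a44, and Cyp3a11 shares 75.3% to 77.2% with these 3. The Cyp3a13 window has neither string.

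The second set shows the Cyp1 genes Cyp1a1 and Cyp1a2, which are neighbours in the genome, and Cyp1b1, with GCGTG, the core that the aryl hydrocarbon receptor binds, in capitals. Cyp1a1 has it 54 to 50 bases before its start, and Cyp1b1, which was lower in iHep than in MF where Cyp1a1 was higher, has it on the other strand 76 to 72 bases before. It also shows Cyp26a1, with the retinoic acid response element (a direct repeat spaced by 5 bases, AGTTCA, 5 bases of any kind and AGTTCA, read on the other strand), and Cyp8b1, with the HNF4 string.
Cyp1a1, chr9:57697513-57697612, plus strand: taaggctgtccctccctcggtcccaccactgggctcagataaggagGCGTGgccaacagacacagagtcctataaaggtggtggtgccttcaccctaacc
Cyp1a2, chr9:57683656-57683755, minus strand: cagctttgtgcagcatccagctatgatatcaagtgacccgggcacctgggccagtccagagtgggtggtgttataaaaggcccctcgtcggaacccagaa
Cyp1b1, chr17:79715062-79715161, minus strand: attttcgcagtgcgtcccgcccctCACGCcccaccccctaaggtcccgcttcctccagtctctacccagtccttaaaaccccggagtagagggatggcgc
Cyp26a1, chr19:37697708-37697807, plus strand: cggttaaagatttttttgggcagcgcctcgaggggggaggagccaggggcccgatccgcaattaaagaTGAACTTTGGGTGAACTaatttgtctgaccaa
Cyp8b1, chr9:121916306-121916425, minus strand: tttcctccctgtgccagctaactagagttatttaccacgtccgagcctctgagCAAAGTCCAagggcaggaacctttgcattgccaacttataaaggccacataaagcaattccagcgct

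In all, 11 strings were searched on both strands in the 250 bases before each start, in 88 windows of 78 P450 genes and in 32851 windows of all genes, and 71 of the 96 measured P450 genes had a window. CAAAGTCCA was in 11 P450 windows (12.5%) against 0.384% of all windows, and TGTTTAC in 10 (11.4%) against 3.17%. The TATA box TATAAA was in 34.1% of P450 windows against 12.4% and the C/EBP string TTGCNNAA in 22.7% against 9.56%. The GATA string AGATAAG was in 4.55% against 2.74%, the second FOXA form TGTTTGC in 2.27% against 4.3% and GCGTG in 19.3% against 28.2%. The retinoic acid string was in 1 P450 window, that of Cyp26a1, and in 7 windows in all. The SF1 and LRH1 string CAAGGTCA was in no P450 window and in 1.33% of all windows, the SREBP string TCACCCCAC in none and in 0.496%, and the PXR string (TGAACT, 6 bases of any kind and AGGTCA) in no window at all. Related genes share much of their upstream sequence, so these windows are not independent, the strings were chosen after results were known, and a match is a string and not a bound site.

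Of the 96 P450 genes, 42 (43.8%) were detected in MF, 75 (78.1%) in iHep and 89 (92.7%) in PH, where 72.9%, 79.5% and 84.5% of all named genes were. A total of 39 were detected on all 3 arrays and 32 in iHep and PH but not in MF. There were 16 in PH alone, among them Cyp1a2, Cyp2a12, Cyp2d10, Cyp3a25 and Cyp8b1, and 3 in iHep alone, Cyp11a1, Cyp11b2 and Cyp26c1. Cyp7b1 and Cyp2d12 were detected in MF and PH but not in iHep, Cyp4f41-ps in MF and iHep but not in PH, and Cyp2j11, Cyp4a29 and Cyp4x1 on no array. Since MF is the dimmest array and its lowest detected level is the highest of the 3, a gene first seen in iHep need not be higher there: of the 35 genes detected in iHep and not in MF, 10 gave a bound under 1-fold.

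**Figure D1:**
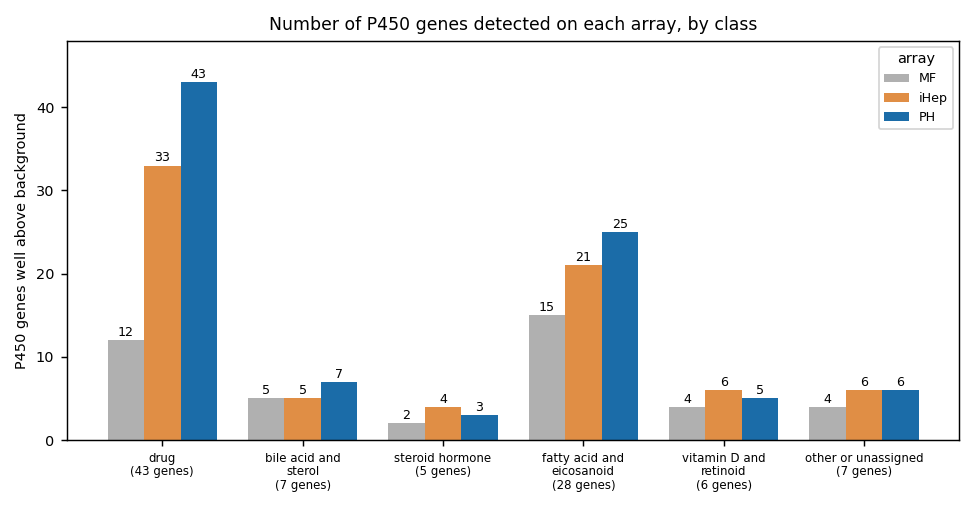
Number of P450 genes well above background (vertical axis, count of genes) on the MF, iHep and PH arrays, for each of 6 classes by substrate; the number over a bar is its height. The drug class shows the widest step, from 12 of 43 genes in MF to 33 in iHep and 43 in PH.

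By class, the drug group (Cyp1, Cyp2a to Cyp2g and Cyp3a genes) was detected for 12, 33 and 43 of 43 genes in MF, iHep and PH, and the bile acid and sterol group for 5, 5 and 7 of 7. The steroid hormone group was detected for 2, 4 and 3 of 5 genes, the fatty acid and eicosanoid group (Cyp4, Cyp2j, Cyp2s1 and Cyp2u1) for 15, 21 and 25 of 28, and the vitamin D and retinoid group for 4, 6 and 5 of 6. The 13 Cyp2c genes, which hydroxylate drugs and epoxidise arachidonic acid, were detected in iHep without exception and in MF for 2, Cyp2c38 and Cyp2c70. Most of them stayed dim in iHep, and 3 passed 2-fold over MF.

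**Figure D2:**
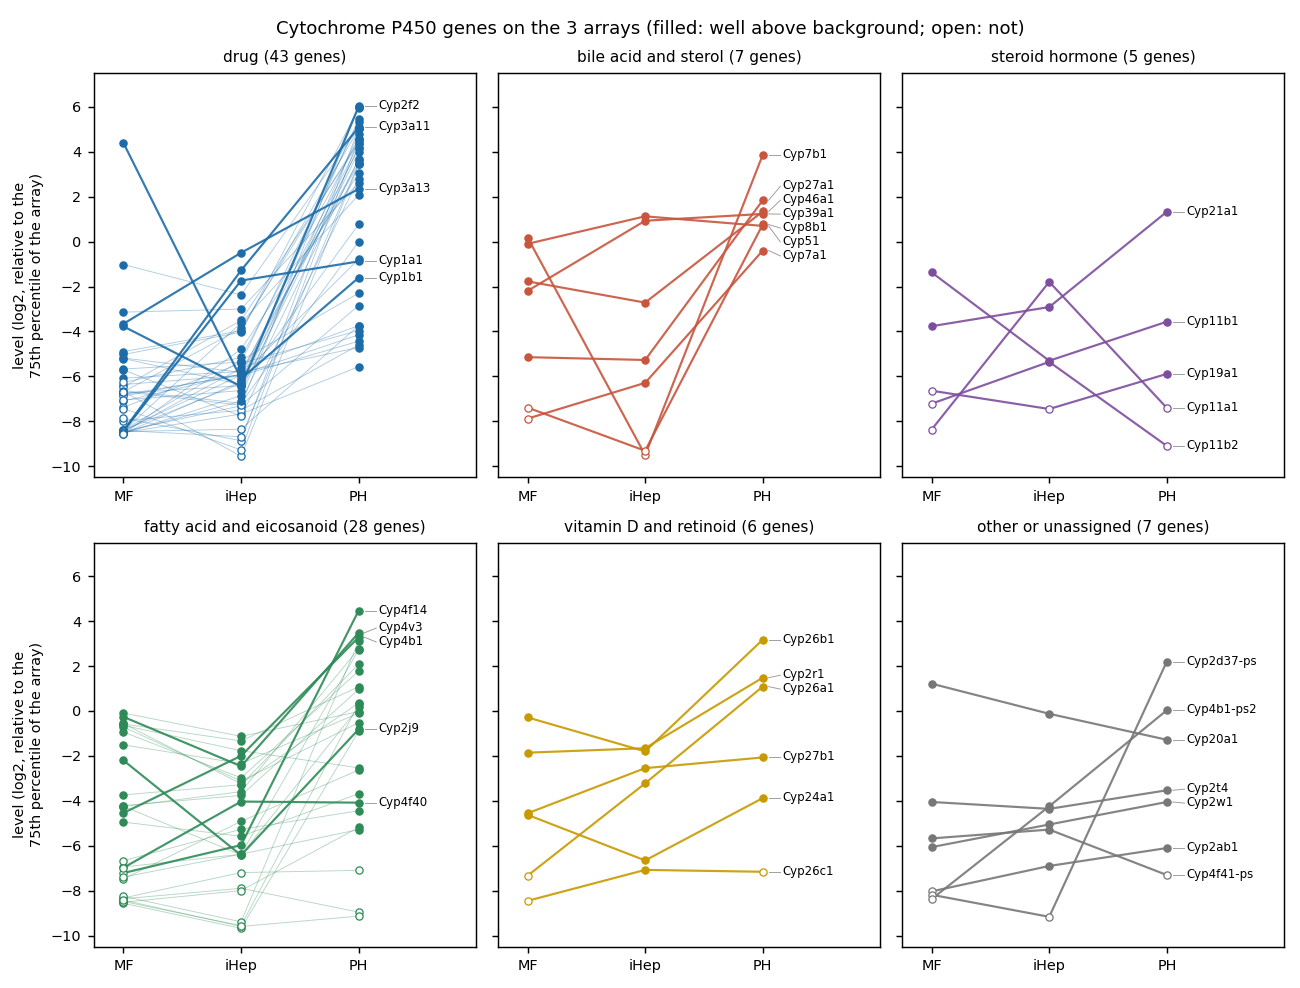
Level of every measured P450 gene (vertical axis, log2 relative to the array's 75th percentile) on the MF, iHep and PH arrays, in 6 panels by class; 1 line is 1 gene, filled points are detected and open points are not. The lines of the drug class climb mainly between iHep and PH, whereas Cyp51, Cyp39a1, Cyp1a1 and Cyp27b1 lie near their PH level in iHep.

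The first comparison asks how P450 expression in the LV-3TF cells differed from that in the LV-NC fibroblasts. Among 77 P450 genes with a detected reading in MF or iHep, 20 were higher in iHep by at least 2-fold, where 19.9% of all genes compared were, and 18 were at least 2-fold lower, where 23.4% were. The shares of the P450 genes, 26% and 23.4%, lie near those of all genes and are no result about the family. Of the 20 higher, 14 rest on a bound because MF was dim, and of the 18 lower, 2 rest on a bound because iHep was dim. The median difference was 0.85 with dim readings as read and 0.20 with bounds, against 0.09 and 0.00 over all genes.

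The number of higher calls changed with another background correction. With normexp, run on the median spot and background signals with an offset of 50 intensity units, 6 genes were higher and 26 lower. Which part of that correction moved the counts was not tested. The 7 higher genes that kept the call wherever an alternative at the 2-fold threshold gave a value were Cyp3a11, Cyp3a13, Cyp1a1, Cyp11a1, Cyp39a1, Cyp4b1 and Cyp51. With normexp, the bounds of Cyp3a11, Cyp1a1 and Cyp11a1 shrank to 2.03, 1.66 and 1.53 on the log2 scale. The other 13 lost the call with normexp: Cyp26a1, Cyp27b1, Cyp2c23, Cyp2c55, Cyp2c67, Cyp2w1, Cyp3a16, Cyp3a41b, Cyp3a59, Cyp4a14, Cyp4b1-ps2, Cyp4f39 and Cyp4f40. Of the 18 lower genes 15 kept it, and the other 3 were Cyp2j13, Cyp4f16 and Cyp4f18.

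The drug class had 9 of 34 compared genes higher and 5 lower, and its highest differences were in Cyp3a and Cyp1a1. Cyp3a11, the main mouse counterpart of human CYP3A4, was not detected in MF (-8.41), and was at -1.28 in iHep and 5.09 in PH. This gave a bound of at least 32.6-fold higher in iHep than in MF, or 2.03 on the log2 scale with normexp. A second Cyp3a11 probe read -6.64 in MF, below detection, -3.81 in iHep and 4.09 in PH, in the same order. Cyp3a13, expressed in gut as well as liver, was detected on all arrays at -3.66, -0.49 and 2.35, an 8.95-fold difference between iHep and MF, and its second probe at -0.05 in iHep was not detected in MF.

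Other Cyp3a members followed in part. Cyp3a41b was not detected in MF and was at -3.62 in iHep (at least 6.43-fold higher) and 2.08 in PH, and Cyp3a16 was not detected in MF and was at -3.86 in iHep (at least 5.45-fold) and 4.51 in PH. Cyp3a59 was at -4.79 in iHep (at least 2.86-fold), by 1 of its 2 probes only, and 3.04 in PH. With normexp, Cyp3a41b, Cyp3a16 and Cyp3a59 lost the 2-fold call over MF. Cyp3a57 was barely detected in iHep at -7.11, below the lowest level detected in MF, and Cyp3a25 and Cyp3a44 were not detected in iHep at all, against 3.48 and -3.74 in PH. In the order of the genes along the cluster (Cyp3a57, Cyp3a16, Cyp3a41b, Cyp3a41a, Cyp3a44, Cyp3a11, Cyp3a25, Cyp3a59), the first 3 were detected in iHep, Cyp3a44 was not, Cyp3a11 was, Cyp3a25 was not and Cyp3a59 was. Cyp3a41a has no named probe here.

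**Figure D3:**
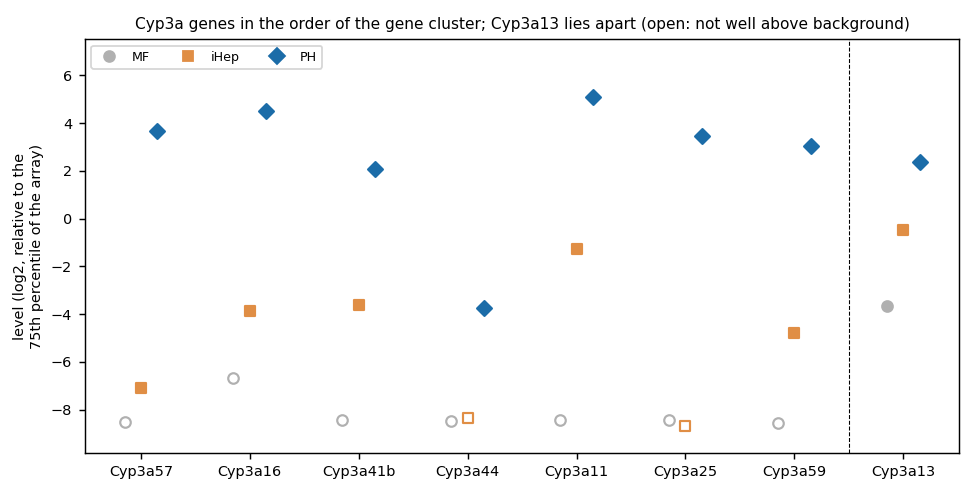
Level (vertical axis, log2 relative to the array's 75th percentile) of 8 Cyp3a genes on the MF, iHep and PH arrays, with the 7 genes of the cluster in genomic order and Cyp3a13 to the right of the dashed line; open symbols are not well above background. All 8 are detected in PH, 6 in iHep and 1, Cyp3a13, in MF.

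Set beside their upstream sequences, the 3 cluster genes with the CAAAGTCCA string, Cyp3a11, Cyp3a16 and Cyp3a41b, were all higher in iHep than in MF by their bounds. Cyp3a44, which carries C7A there, was not detected in either. With normexp the bounds of Cyp3a11, Cyp3a16 and Cyp3a41b were 2.03, -0.18 and 0.06 on the log2 scale. The last 2 leave the difference of Cyp3a16 and Cyp3a41b from MF unknown under that correction. The string did not go with detection throughout: Cyp8b1 carries it and was not detected in iHep. Cyp3a13 and the cluster gene Cyp3a59 (at least 2.86-fold, by 1 of its 2 probes) were higher in iHep than in MF without it. Over the 8 measured P450 genes with the string, 1 was detected in MF, 7 in iHep and 8 in PH, and 4 passed 2-fold over MF in iHep. Over the 63 without it, 28, 49 and 59 were detected and 12 passed 2-fold. With normexp, Cyp3a11 alone of those 4 kept the call, and some of the 12 lost it too. Whether the string bears on the levels was not tested. Hnf4a itself, the factor that gives the string its name, was at -5.62 in MF, 1.04 in iHep and 6.0 in PH. The probe sequences were not used here, and among genes this alike a probe may read several members, which cannot be told apart in these arrays.

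The Cyp1 family parted ways. Cyp1a1, which oxidises polycyclic aromatic hydrocarbons and is the classical target of the aryl hydrocarbon receptor, was not detected in MF (-8.43), and was at -1.73 in iHep and -0.88 in PH, at least 23.8-fold higher in iHep than in MF. With normexp this bound was 1.66 on the log2 scale. The neighbour of Cyp1a1, Cyp1a2, a hepatocyte enzyme that metabolises caffeine, was not detected in MF (-6.68) or iHep (-9.56) and was at 3.44 in PH. Cyp1b1, known from fibroblasts and other mesenchymal cells, was at 4.39 in MF, -6.10 in iHep and -1.60 in PH. It was 1443-fold lower in iHep than in MF, further apart than any other P450 gene measured on both arrays. All 7 fibroblast markers were lower in iHep too, and their part in this difference was not tested. The receptor gene Ahr was at -1.40 in MF, -2.48 in iHep and 2.08 in PH, and its repressor Ahrr at -3.15, -6.45 and -4.77.

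Of the 32 Cyp2 members of the drug class, 3 were higher in iHep than in MF, 4 were lower and 6 were measured within 2-fold. Another 8 had a bound between 1-fold and 2-fold higher, 5 a bound under 1-fold, and 6 were detected on neither array, so for these genes the dim readings do not say whether they lie within 2-fold. Cyp2c23, an arachidonic acid epoxygenase, was not detected in MF and was at -3.50 in iHep, at least 6.96-fold higher, and Cyp2c67 and Cyp2c55 had bounds of 2.16-fold and 2.02-fold, at the threshold. All 3 lost the call with normexp. Cyp2e1, the ethanol-inducible enzyme, was at -5.02 in MF and -4.03 in iHep, a 1.98-fold difference against 5.93 in PH. Cyp2f2, which activates naphthalene, was 6.37-fold lower in iHep (-6.44) than in MF (-3.77), and 3 Cyp2d genes were lower: Cyp2d11 by 2.55-fold, Cyp2d22 by 2.24-fold and Cyp2d12 by at least 3.06-fold. None of the 6 compared Cyp2d genes passed 2-fold higher. Of the Cyp2b genes, which respond to phenobarbital in liver, Cyp2b19 was measured on both arrays and was 1.56-fold lower in iHep, and Cyp2b10, Cyp2b13 and Cyp2b23 had bounds of at least 1.28-fold, 1.27-fold and 1.58-fold higher, which leave their distance from MF unknown.

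Among the bile acid and sterol enzymes, Cyp39a1, which hydroxylates 24-hydroxycholesterol, was at -2.19 in MF, 0.93 in iHep and 1.24 in PH, so that iHep was 8.72-fold above MF and 1.23-fold below PH. Cyp51, lanosterol demethylase of cholesterol synthesis, was at -0.10, 1.13 and 0.70, 2.34-fold above MF. Cyp7a1, the rate-limiting enzyme of bile acid synthesis, was not detected in MF and read -6.29 in iHep, a bound of 1.01-fold. Cyp8b1, the 12-alpha-hydroxylase of cholic acid synthesis, was detected in neither. Cyp27a1, the mitochondrial sterol 27-hydroxylase, was at -5.14 and -5.27.

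Cyp7b1, the oxysterol 7-alpha-hydroxylase, ran the other way: it was at 0.18 in MF and 3.86 in PH and was not detected in iHep (-9.50), at least 182-fold lower than in MF. Cyp46a1, which makes 24-hydroxycholesterol, was at -1.77 in MF and -2.71 in iHep, within 2-fold. Of the 7 genes, 2 were thus higher and 1 lower among 6 compared.

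The steroid hormone class was small and uneven. Cyp11a1, which cleaves the side chain of cholesterol to begin steroid synthesis, was not detected in MF (-8.37) or PH (-7.40) and was at -1.79 in iHep, at least 22.9-fold above MF and at least 34.4-fold above PH. With normexp these bounds were 1.53 and 3.06 on the log2 scale. Cyp11b1, the 11-beta-hydroxylase of corticosterone synthesis, was at -1.37 in MF, -5.30 in iHep and -3.56 in PH, 15.3-fold lower in iHep than in MF. Cyp11b2, aldosterone synthase, was detected in iHep alone, at -5.35 (a bound of 1.93-fold over MF), and Cyp19a1, aromatase, in PH alone, at -5.89. Cyp21a1, the 21-hydroxylase, was at -3.76, -2.91 and 1.33 by the probe used, and its other probe was detected in PH alone. Cyp17a1 was at -2.72 in MF and -2.13 in iHep.

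Markers of steroid-producing tissue were read beside these. Star, which carries cholesterol into mitochondria, was at -4.98 in MF, -6.57 in iHep and -3.76 in PH, and Nr5a1, the steroidogenic nuclear receptor, was at -3.67, -3.35 and -1.46. Hsd3b1 was detected in MF alone (-5.07), and Mc2r, the ACTH receptor, in iHep alone (-6.89). Of the 4 markers, 3 were detected in MF, 3 in iHep and 2 in PH. Star, Nr5a1 and Hsd3b1 were not 2-fold higher in iHep than in MF. Mc2r gave a bound under 1-fold, which leaves its difference from MF unknown. Fdx1, the adrenodoxin gene whose product passes electrons to Cyp11a1, was at 2.40 in MF and 2.51 in iHep.

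The fatty acid and eicosanoid class had 4 of 21 compared genes higher and 8 lower in iHep, with a median of -0.63 (0.17 with the mean of each gene's probes). Cyp2j genes make epoxides from arachidonic acid, and all 4 that could be compared were lower. Cyp2j9 was at -2.20 in MF, -6.42 in iHep and -0.81 in PH, 18.7-fold lower in iHep than in MF, and Cyp2j6 (5.33-fold) and Cyp2j8 (4.12-fold) were lower too. Cyp2j13 was 4.49-fold lower by the probe used, but its other 2 probes were higher in iHep, by 1.62 and 1.13 on the log2 scale, so its direction is unsettled. These genes lie side by side in the genome in the order Cyp2j13, Cyp2j12, Cyp2j11, Cyp2j8, Cyp2j6, Cyp2j9, Cyp2j5.

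Cyp2s1, an extrahepatic eicosanoid enzyme, was 6.44-fold lower in iHep (-3.24) than in MF (-0.56), and Cyp4v3, an omega-hydroxylase of fatty acids, 4.59-fold lower (-2.46 against -0.26). Cyp4f16 and Cyp4f18, of the Cyp4f subfamily, were lower by 2.18-fold and 2.05-fold. Cyp4b1, which hydroxylates short-chain fatty acids and some lung toxins, stood apart at -4.54 in MF, -2.0 in iHep and 3.28 in PH, 5.83-fold higher in iHep than in MF, and its pseudogene Cyp4b1-ps2 was not detected in MF and was at least 4.17-fold higher. The other 3 higher genes, Cyp4f40 (at least 4.82-fold), Cyp4a14 (at least 2.62-fold), a target of PPAR-alpha, and Cyp4f39 (at least 2.05-fold), were dim in MF and at -5.27 to -4.03 in iHep. These 3 and Cyp4b1-ps2 lost the call with normexp. Ppara was at -3.79 in MF and -3.36 in iHep.

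In the vitamin D and retinoid class 2 genes were higher and 2 lower of 6. Cyp26a1, the retinoic acid hydroxylase whose upstream window holds the retinoic acid string, was not detected in MF and was at -3.22 in iHep and 1.08 in PH, at least 8.46-fold higher in iHep than in MF. With normexp this bound was 0.03 on the log2 scale, and the call was lost. Cyp26b1, which breaks down the same substrate, was 2.86-fold lower (-1.80 against -0.29). Cyp27b1, which makes the active form of vitamin D, was 4.03-fold higher (-2.55 against -4.56), and Cyp24a1, which inactivates it, was 4.09-fold lower (-6.66 against -4.63). Cyp2r1, the vitamin D 25-hydroxylase, was at -1.86 in MF and -1.66 in iHep by the probe used. Its second probe was at -2.71 in MF and was not detected in iHep.

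**Figure D4:**
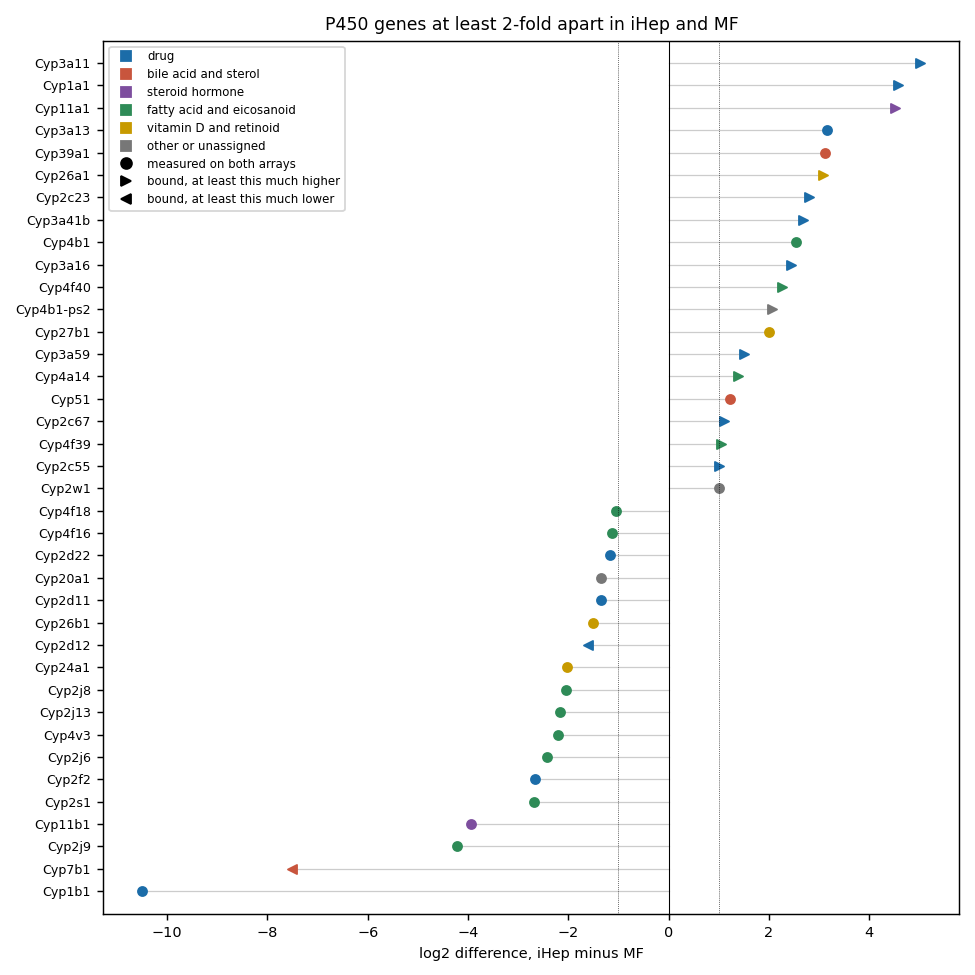
Log2 difference between iHep and MF (horizontal axis, iHep minus MF) for the 38 P450 genes at least 2-fold apart, coloured by class; circles were measured on both arrays, and triangles are bounds that point towards larger differences. Cyp3a11, Cyp1a1 and Cyp11a1 head the 20 higher genes, all as bounds, and Cyp1b1 and Cyp7b1 end the 18 lower ones.

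The second comparison sets the hepatocytes, the positive control, against the fibroblasts, with the MF array used before. Of 90 P450 genes compared, 75 were at least 2-fold higher in PH than in MF, where 30.8% of all genes were, and 5 were lower, where 25.4% were. The median difference was 5.8 (5.42 with bounds), against 0.12 (0.04) over all genes. Of the 75 higher, 45 rest on a bound because MF was dim. With normexp 59 genes were higher, and bounds shrank, for example from 11.39 to 8.36 for Cyp3a11 and from 7.07 to 3.83 for Cyp8b1 on the log2 scale.

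All 13 Cyp2c, 8 Cyp2d and 8 Cyp3a genes were higher in PH than in MF. MF was below detection for 11, 4 and 7 of them, and the median differences were 10.48, 9.40 and 9.56 with bounds, or 10.85, 9.76 and 11.40 with dim readings as read. Cyp2a12 read 6.0 in PH and was not detected in MF, at least 5049-fold apart, Cyp3a11 was at least 2690-fold higher, and Cyp2f2 888-fold and Cyp2e1 1987-fold higher. Cyp1a2 was at least 858-fold and Cyp8b1 at least 134-fold higher, and Cyp27a1 was 127-fold higher. Cyp7b1, not detected in iHep, was 12.8-fold higher in PH than in MF.

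The 5 genes lower in PH were Cyp1b1 (63.7-fold), Cyp20a1, an orphan P450 with no settled substrate (5.65-fold), Cyp11b1 (4.58-fold), Cyp4f16 (3.71-fold) and the pseudogene Cyp4f41-ps (at least 2.33-fold). All 5 were within 2-fold or lower in iHep too: Cyp20a1 was at 1.22 in MF, -0.13 in iHep and -1.28 in PH. These values share the MF array and are not separate evidence.

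Lists known from liver place the PH pool. All 8 measured pericentral P450 genes, which are known from hepatocytes around the central vein (Cyp2e1, Cyp1a2, Cyp7a1 and Cyp3a11 among them), were higher in PH than in MF, and so was the periportal Cyp2f2, at 6.02. In iHep 7 of these 8 pericentral genes were detected, and 1, Cyp3a11, was 2-fold higher than in MF. Members known to be higher in male mouse liver were detected in PH for 5 of 5: Cyp2d9 was at 4.0, Cyp4a12a at 2.73, Cyp4a12b at 2.77, Cyp7b1 at 3.86 and Cyp2u1 at -3.69. Members known to be higher in female liver were detected for 7 of 7 measured: Cyp2a4 at 3.48, Cyp3a16 at 4.51, Cyp3a41b at 2.08, Cyp39a1 at 1.24, Cyp3a44 at -3.74, Cyp2b13 at -4.43 and Cyp2b9 at -4.60. Both lists were thus read in the pool that carried Y-linked transcripts under a female label, and whether the pool mixed the sexes was not tested.

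The third comparison asks how near iHep came to hepatocytes. Of 93 P450 genes compared, 79 (84.9%) were at least 2-fold lower in iHep than in PH, where 35.9% of all genes were, and 4 (4.30%) were at least 2-fold higher, where 23.3% were. The median was -4.97 against -0.30 over all genes, and iHep and PH shared a scan. Of the 79 lower, 61 were measured on both arrays and 18 are bounds.

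The drug class showed the widest gap, with 42 of 43 genes lower and a median of -7.89. Cyp2a12 was at least 10133-fold, Cyp2f2 5657-fold, Cyp2d10 at least 5289-fold, Cyp2c54 3302-fold and Cyp2e1 1001-fold lower in iHep. The value of Cyp2c54 rests on the probe used, and its other probes were not detected in iHep. Among the Cyp3a genes higher in iHep than in MF, Cyp3a13 was 7.18-fold, Cyp3a41b 52.0-fold, Cyp3a11 82.6-fold, Cyp3a59 227-fold and Cyp3a16 331-fold lower than in PH. Of the others, Cyp3a57 was 1773-fold and Cyp3a25 at least 1783-fold lower, and Cyp3a44, low in PH, at least 12.0-fold lower. Cyp1a1 was the 1 drug-class gene within 2-fold of PH, 1.81-fold lower, while its neighbour Cyp1a2 was at least 1739-fold lower.

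The bile acid class split into genes near PH and genes far from it. Cyp51 (1.34-fold higher) and Cyp39a1 (1.23-fold lower) were within 2-fold of PH, and Cyp46a1 was 16.6-fold lower. Cyp7a1 was 59.3-fold, Cyp27a1 138-fold, Cyp8b1 at least 272-fold and Cyp7b1 at least 2333-fold lower. These transcripts, which belong to both routes from cholesterol to bile acids, were thus below their level in PH. The class median was -5.89.

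In the fatty acid class 22 of 25 compared genes were lower in iHep than in PH, with a median of -4.72. Cyp4f14, which hydroxylates leukotriene B4, was 1396-fold, Cyp4a12a 554-fold, Cyp4a10 41.5-fold by the probe used, and Cyp4b1 38.8-fold lower. The other Cyp4a10 probes gave log2 differences of -3.01, detected on both arrays, and -8.75, not detected in iHep. Within 2-fold were Cyp4f16, 1.70-fold higher, Cyp4f40, 1.03-fold higher, and Cyp4f39, 1.77-fold lower. In the vitamin D and retinoid class Cyp27b1 was 1.39-fold lower, and Cyp26a1 (19.8-fold), Cyp26b1 (31.4-fold), Cyp2r1 (8.82-fold) and Cyp24a1 (6.84-fold) were lower.

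Of the genes within 2-fold of PH, Cyp51, Cyp39a1, Cyp1a1, Cyp27b1 and Cyp4f39 stayed within it under every alternative that gave a value. Quantile normalization, which moved the median of all genes by 0.49 in this comparison, put Cyp4f16 (1.30 on the log2 scale) and Cyp4f40 (1.06) past 2-fold higher in iHep and turned the sign of Cyp4f39 (0.27) and Cyp27b1 (0.04), both still within 2-fold.

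The 4 genes at least 2-fold higher in iHep than in PH were Cyp11a1 (at least 34.4-fold), Cyp4f41-ps (at least 3.05-fold), Cyp11b2 (at least 2.91-fold) and Cyp20a1 (2.23-fold). At the 2-fold threshold, Cyp11a1 and Cyp20a1 kept the call under every alternative that gave a value, and the other 2 lost it with normexp. For Cyp11a1 and Cyp11b2 neither MF nor PH gave a detected reading. Cyp20a1 was higher in MF than in iHep, and Cyp4f41-ps was within 2-fold of MF.

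**Figure D5:**
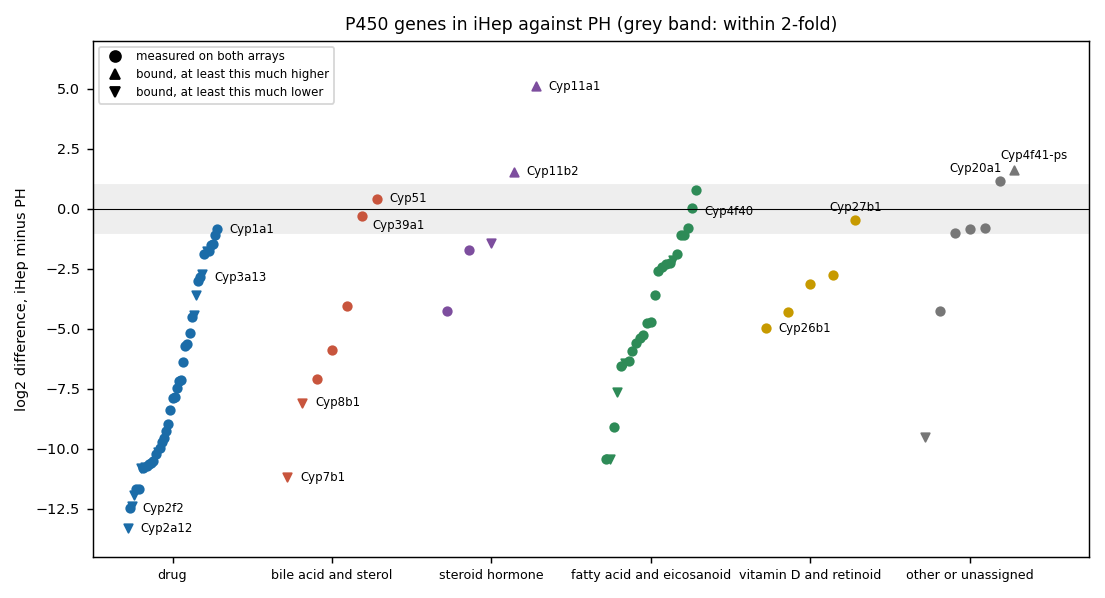
Log2 difference between iHep and PH (vertical axis, iHep minus PH) for each P450 gene by class, ordered by value within a class; circles were measured on both arrays, triangles are bounds pointing towards larger differences, and the grey band spans 2-fold either way. Most points lie far below the band, Cyp1a1, Cyp51, Cyp39a1, Cyp4f40 and Cyp27b1 lie in it, and Cyp11a1 lies highest. Cyp26c1, whose bound was under 1-fold, and Cyp2j11, Cyp4a29 and Cyp4x1, detected on no array, are not drawn.

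Genes for the proteins that P450s depend on were detected in iHep. All 7 electron donor genes were detected on all 3 arrays. Por, the oxidoreductase that serves every microsomal P450, was at 4.49 in MF, 4.70 in iHep and 5.64 in PH. Cytochrome b5 (Cyb5a) was 3.55-fold and its reductase Cyb5r3 7.86-fold lower in iHep than in MF, and the other 5 donors stayed within 2-fold. All 5 genes of haem synthesis and breakdown were detected, and Alas1, the first enzyme of haem synthesis, was at 3.85 in MF, 2.31 in iHep and 5.70 in PH, 10.5-fold lower in iHep than in PH.

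Among 14 receptors and regulators of P450 genes, 2 of 13 compared were higher in iHep than in MF by at least 2-fold and 4 were lower. The 2 were Hnf4a (101-fold) and Nr1h4, the bile acid receptor FXR (15-fold). Whether LV-3TF carries a gene on this list is not given in the labels. Cebpa, a liver-enriched activator, was at -1.56 in MF, -5.76 in iHep and 1.61 in PH, 18.4-fold lower in iHep than in MF. Nr1i2, the drug receptor PXR that controls Cyp3a11, was not detected in MF and was at -6.16 in iHep and -0.22 in PH. Nr1i3 (CAR), the phenobarbital-responsive receptor, was at -3.16, -2.56 and 0.93. Against PH, 13 of the 14 were lower in iHep, Cebpa by 166-fold and Nr1i2 by 61.1-fold.

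Markers of other organs that express P450 genes were read in iHep as well. Of 4 small intestine markers, 3 were detected in iHep, 3 in PH and 1 in MF. Vil1, the villin gene of brush borders, was not detected in MF and was at 0.33 in iHep and -4.61 in PH. Sis, sucrase-isomaltase, was not detected in MF and was at -3.38 in iHep and -3.25 in PH, and Fabp2, a fatty acid binding protein of enterocytes, was at -5.14 in MF, -4.54 in iHep and 1.19 in PH. Kidney markers were detected for 2 of 4 and lung club cell markers for 1 of 2 in iHep, as in MF. Their part in the P450 values was not tested.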

How the data were processed

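Total RNA of 3 pools was labelled with Cy3 and hybridised to 1 single-colour Agilent array each, with groups as the sample titles give them. The deposited files hold linear spot intensity, written by Agilent Feature Extraction 11.0.1.1 per the file headers (9.1 per the submitters' processing notes). Background had been subtracted within each array and the probe design refers to mm9, per the file headers, so no coordinates of that build are printed. The authors' value table holds log2 values, deposited with scale and centring unstated. Over 25845 shared probes it correlated with the scanner values at 0.997, 0.998 and 0.994 for MF, iHep and PH, with column medians of 7.01, 7.00 and 7.05. By these correlations its values ran in the scanner's direction, though some differences between arrays changed sign. Cyp27b1 in iHep over PH, for example, was 0.06 by the authors' values and -0.48 by the scanner's. The normalization of the authors' value table stays unknown, and the table served as an alternative. The other flag columns the software wrote were used as deposited, per the file headers.

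From these, log2 of processed intensity minus the array's 75th percentile was computed. Control spots and 190, 230 and 383 outlier spots of 43020 (MF, iHep, PH) were left out, no spot was saturated, and spots of a probe were averaged. Probes were named by transcript accession through a RefSeq gene table of GRCm38.p6, which named 27234 of 39429 probes (69.07%). Of several probes, the one brightest on average over the arrays stood for the gene, which affects 17 P450 genes with more than 1 probe. The number of arrays limits the precision.

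Alternatives were quantile normalization, normexp correction of the background (with limma 3.58.1, R 4.3.3), another scaling (the median of probes detected on all arrays), the authors' values, only probes detected on all arrays, no filter, the mean of a gene's probes, thresholds of 4-fold and 1.5-fold, and detection by every probe. The slide or scan could not be used as a block. Calculations used Python 3.11.15, numpy 2.4.6 and pandas 2.3.3 and were checked on simulated data. Genes named with values are anchor genes, the 4 highest of each class on each array, those 2-fold apart in iHep and MF, those at least as high in iHep as in PH, the 5 highest and lowest differences of each comparison, and the listed sublists, partners and markers. Members of the Cyp3a cluster and second probes, and Cyp2j genes beside those named, were added after their values were seen. The members, lists and strings were chosen with earlier results of these data known. A gene of the regulator list is not reported here.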

Additional observations from a re-analysis of the deposited data

How the results depend on the processing

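Whether a P450 call at 2-fold was kept was counted over the alternatives at that threshold that gave a value. Kept in all of them were 7 of 20 higher and 15 of 18 lower in iHep over MF. For PH over MF they were 60 of 75 higher and 5 of 5 lower, and for iHep over PH 2 of 4 higher and 67 of 79 lower. Counts that moved by over 1.5 times were, for genes higher in iHep over MF, 6 with normexp, 6 with only probes detected on all arrays (39 genes compared), 36 with no filter on dim probes and 13 at 4-fold, and for genes lower in iHep over MF 11 at 4-fold. For PH over MF they were 28 higher with only probes detected on all arrays, and 3 lower with the authors' values and at 4-fold. For iHep over PH they were 2 higher with normexp, 1 with only probes detected on all arrays and 1 at 4-fold, and 52 lower with the authors' values (70 genes compared) and 33 with only probes detected on all arrays. Detection by every probe gave 33, 67 and 88 genes in MF, iHep and PH.

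The median of the drug class in iHep over MF reversed to -1.51 with normexp, that of the steroid hormone class to -0.70 with normexp and -1.54 with only probes detected on all arrays (2 genes), and that of the unassigned class in PH over MF to -0.42 with normexp. Cyp2w1, detected on all arrays, reversed to -1.21 in iHep over MF and -0.26 in PH over MF with normexp. In iHep over PH it reversed to 0.0303 with quantile normalization and 0.035 with the authors' values. Cyp2j13 in iHep over MF reversed to 0.19 with the mean of its probes, 2 of which ran the other way. The cause of the other changes, those with normexp included, was not tested. Quantile normalization moved the median of all genes by 0.49 in iHep over PH and -0.23 in PH over MF, the authors' values by 0.48 and -0.24, and normexp by -0.23 in iHep over MF and -0.17 in PH over MF.

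No paired analysis was possible because each group is 1 array. Readings near the lowest detected level carry no order, and near-identical genes of the Cyp2c, Cyp2d, Cyp3a and Cyp4a subfamilies cannot be told apart without the probe sequences, which were not used here.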

Other observations

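Prostacyclin synthase and thromboxane synthase are P450 enzymes whose symbols fall outside the naming rule used above. Ptgis, which makes prostacyclin, was at 3.54 in MF, -0.40 in iHep and 0.59 in PH, 15.4-fold lower in iHep than in MF. Tbxas1, which makes thromboxane and is known from platelets and macrophages, was at 0.35 in MF and -0.70 in PH and was not detected in iHep, at least 205-fold lower than in MF. Macrophage markers ran beside it: the 3 that could be compared were lower in iHep than in MF, with a median difference of -5.58. C1qc was at 4.81 in MF, 4.76 in PH and below detection in iHep, at least 4503-fold lower than in MF, Csf1r was 47.7-fold lower and Ptprc 12.1-fold lower. The fourth, Adgre1, was at 2.99 in MF and 2.54 in PH, and in iHep the probe used read -9.47, below detection, while its other probe was detected. Their part in the Tbxas1 values was not tested.

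Epoxide hydrolases take up the epoxides that P450 enzymes make. Ephx2, the soluble enzyme that acts on fatty acid epoxides, was at -0.42 in MF, 0.95 in iHep and 6.27 in PH, 2.59-fold higher in iHep than in MF. Ephx1, the microsomal enzyme that acts on foreign epoxides, was at 4.58, 3.30 and 4.83, 2.43-fold lower in iHep than in MF.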
